A study of Mus musculus with 4 samples.

Results

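Checkpoint-high, non-dividing CD8 T cells were 239 of the 3161 non-dividing CD8 T cells read from Myc-CaP tumors, and 239 of 5508 deposited cell barcodes. A barcode was kept with at least 500 detected genes and at most 10% of its unique molecular identifiers (UMIs, 1 per captured RNA molecule) in mitochondrial genes. It counted as a CD8 T cell with at least 1 UMI of Cd3d, Cd3e or Cd3g, at least 1 of Cd8a or Cd8b1, at most 1 of the macrophage complement genes C1qa, C1qb and C1qc, and 0 of Siglech. A CD8 T cell was a member when at least 2 of Pdcd1, Havcr2, Lag3 and Entpd1 were detected and the cell-cycle genes Mki67, Top2a, Birc5 and Ube2c gave at most 2 UMIs together. The members were thus selected on the measured UMIs of those 4 checkpoint genes, whose own levels are a description.

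Myc-CaP cells come from a Myc-driven tumor of the mouse prostate and were grown here under the flank skin of male FVB mice. Tumor-infiltrating CD3+ CD8+ cells were sorted from tumors of 4 groups and read as 1 droplet library each. Ctrl mice were untreated, aPD-L1 mice received an antibody to PD-L1 at 10 mg/kg, Oxali mice received the platinum drug oxaliplatin at 6 mg/kg, and Combo mice received both at these doses, each given weekly into the abdominal cavity. All groups carried the same line, and neither the age of the mice nor the number of tumors pooled in a library was stated. With 1 library per group, a difference between libraries cannot be told apart from a difference between single tumors or preparations, and no test was possible. Intervals below are exact 95% intervals for counting error only, and they are too narrow where the UMIs of 1 cell are not independent.

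T cells that meet antigen for a long time, as in tumors, carry inhibitory receptors and lose function in steps, a state called exhaustion. A TCF-1 positive progenitor subset, marked by the transcription factor gene Tcf7, renews itself, homes to lymphoid niches and is known in mouse models as the subset that expands after blockade of PD-1 or its ligand. Its progeny lose TCF-1, gain receptors such as TIM-3 (Havcr2) and CD39 (Entpd1), and become cytotoxic effector-like or terminally exhausted cells.

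The 11 T-cell and CD8 genes of the marker list were all found, and each of the 239 members had at least 3 of their UMIs. Pdcd1 encodes PD-1, Lag3 a receptor for MHC class II, Havcr2 TIM-3 and Entpd1 the ATP-degrading ectoenzyme CD39. On mm10 these genes lie at chromosome 1: 94038305-94052553 (Pdcd1, minus strand), chromosome 6: 124904361-124911705 (Lag3, minus strand), chromosome 11: 46454935-46481255 (Havcr2, plus strand) and chromosome 19: 40612366-40741602 (Entpd1, plus strand). Tcf7 lies at chromosome 11: 52252371-52283014 on the minus strand.

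Pdcd1 was detected in 201 members (84.1%), Lag3 in 187 (78.2%), Entpd1 in 107 (44.8%) and Havcr2 in 55 (23.0%). The most frequent pair was Pdcd1 with Lag3 alone, in 106 members (44.4%): Ctrl held 17, aPD-L1 31, Oxali 12 and Combo 46. Pdcd1 with Entpd1 alone was seen in 35 members, Lag3 with Entpd1 alone in 22, the trio of Pdcd1, Lag3 and Entpd1 in 21, and all 4 genes in 17. Members were thus mostly PD-1 and LAG-3 transcribing cells, and TIM-3 transcript was found in the minority, 9 of 38 in Ctrl, 13 of 61 in aPD-L1, 8 of 31 in Oxali and 25 of 109 in Combo.

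The threshold ran through sparse counts. Just inside it were 184 cells with exactly 2 checkpoint genes, at a median of 3 checkpoint UMIs, of which 67 had exactly 2 UMIs. Just outside were 649 cells with 1 checkpoint gene, at a median of 1 checkpoint UMI and a maximum of 9. Median total UMIs were 3936 inside and 3118 outside, so depth moved with membership.

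Among non-dividing CD8 T cells, members were 38 of 652 in Ctrl (5.83%, interval 4.16 to 7.91), 61 of 967 in aPD-L1 (6.31%, 4.86 to 8.03), 31 of 830 in Oxali (3.73%, 2.55 to 5.26) and 109 of 712 in Combo (15.3%, 12.7 to 18.2). The Combo interval lay above the other 3. Members had a median of 5105, 3994, 4959 and 4227 UMIs in that order of libraries, against 2906, 2638, 2674 and 2876 in the other non-dividing CD8 T cells.

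Because detection depends on depth, each cell was also thinned at random to 1500 UMIs and the checkpoint condition applied again, with 12, 94, 86 and 42 shallower cells left out. Members were then 8 of 640 in Ctrl (1.25%, 0.541 to 2.45), 33 of 873 in aPD-L1 (3.78%, 2.62 to 5.27), 8 of 744 in Oxali (1.08%, 0.465 to 2.11) and 41 of 670 in Combo (6.12%, 4.43 to 8.21). Combo stayed highest. The ratio of aPD-L1 to Ctrl moved with the thinning, from 1.08 (0.71 to 1.67) as counted to 3.02 (1.37 to 7.58). The thinned shares come from a single random draw that was not repeated for membership, and their intervals leave out variation between draws. The Combo share was 2.63 times that of Ctrl as counted (1.80 to 3.91) and 4.90 times after thinning (2.27 to 12.1). It was 2.43 times that of aPD-L1 as counted (1.76 to 3.38), and 1.62 times after thinning, with an interval of 0.999 to 2.64 that reached 1.

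**Figure D1:**
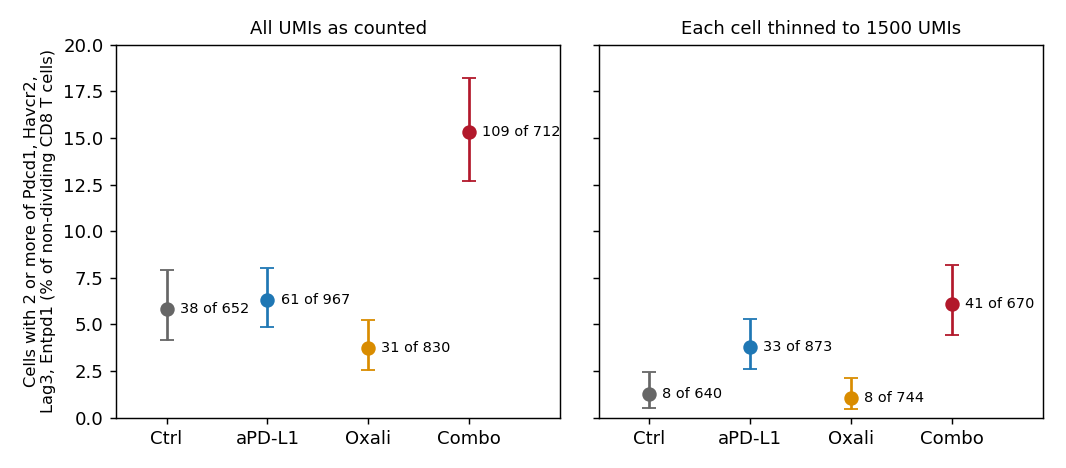
Share of non-dividing CD8 T cells with 2 or more of Pdcd1, Havcr2, Lag3 and Entpd1 detected, in percent on the vertical axis, for each of the 4 libraries, as counted (left) and with each cell thinned to 1500 UMIs (right). Points are shares with the cell numbers beside them and bars are exact 95% intervals. Combo is highest in both panels, at 15.3% and 6.12%, and aPD-L1 lies with Ctrl on the left and above it on the right.

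The checkpoint genes did not each contribute alike. After thinning, Pdcd1 was detected in 7.5%, 9.74%, 6.32% and 19.6% of non-dividing CD8 T cells in Ctrl, aPD-L1, Oxali and Combo. The corresponding shares of Lag3 were 4.38%, 5.96%, 2.69% and 11.6%. Havcr2 was found in 0.781%, 1.15%, 0.672% and 2.09%, and Entpd1 in 2.19%, 3.44%, 2.55% and 4.93%. Each of the 4 genes was thus most frequent in Combo and next in aPD-L1. Cells past the limit on cell-cycle genes were checkpoint-high more often than the cells under it: 76 of 165 dividing CD8 T cells (46.1%, 38.3 to 54.0, against 7.56% of the non-dividing) had 2 or more checkpoint genes, although dividing cells were also deeper (a median of 10736 UMIs in those with 2 or more checkpoint genes and at least 1500 UMIs).

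Tcf7 was rare in the members but not absent. At 1500 UMIs per cell it was detected in 3 of 36 members in Ctrl (8.33%, 1.75 to 22.5), 5 of 57 in aPD-L1 (8.77%, 2.91 to 19.3), 4 of 29 in Oxali (13.8%, 3.89 to 31.7) and 4 of 103 in Combo (3.88%, 1.07 to 9.65). The 4 intervals overlapped, and no order among libraries is read from these members: another random draw gave 10 of 103 in Combo (9.71%), and at 3000 UMIs the share was 15.5% in Combo and 20.5% in aPD-L1. As counted, Tcf7 was detected in 31.6%, 21.3%, 32.3% and 20.2% of members in the same order, 57 of 239 in all (23.8%). Among thinned barcodes with no UMI of CD3, TCR alpha or CD8 genes, Tcf7 was found in 1 of 103 (0.971%, 0.0246 to 5.29). Their median was 4130 UMIs before thinning. As counted, 6 of 136 such barcodes had Tcf7 (4.41%), so they are not a class free of it. Thinned members had Tcf7 in 16 of 225 (7.11%, 4.12 to 11.3, at a median of 4776). The member share was thus above that of those barcodes by count, with overlapping intervals. Among the cells not chosen, 637 of 2702 had Tcf7 (23.6%, 22.0 to 25.2, at a median of 2890).

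Tcf7 was graded with the number of checkpoint genes. Over the 4 libraries at 1500 UMIs it was detected in 546 of 2109 non-dividing CD8 T cells with no checkpoint gene (25.9%, 24.0 to 27.8), 91 of 593 with 1 (15.3%, 12.5 to 18.5), 15 of 171 with 2 (8.77%, 4.99 to 14.1) and 1 of 54 with 3 or 4 (1.85%, 0.0469 to 9.89). From none to 1 to 2 checkpoint genes the share was 27.7%, 18.8% and 10.0% in Ctrl, 25.7%, 15.1% and 9.52% in aPD-L1, 26.6%, 22.7% and 18.2% in Oxali, and 22.6%, 9.57% and 5.19% in Combo. The order was the same in every library in this random draw. As counted, the share for 0, 1, 2 and 3 or 4 genes was 41.7%, 30.5%, 26.6% and 14.5% over the 4 libraries. In Combo it was 37.8%, 19.1%, 20.5% and 19.2% as counted, without a fall past 1 gene. The as-counted share fell at each step in Ctrl, aPD-L1 and Oxali. At 3 or 4 genes the counts were 0 of 6 in Ctrl, 1 of 15 in aPD-L1, 0 of 7 in Oxali and 0 of 26 in Combo at 1500 UMIs. As counted they were 1 of 6, 1 of 16, 1 of 7 and 5 of 26. At 1500 UMIs the exact upper limits for a count of 0 were 45.9%, 41% and 13.2% in Ctrl, Oxali and Combo. They limit cells with a Tcf7 UMI at this depth, not cells that express the gene. In the cells not chosen the Combo share was 17.8% (14.7 to 21.2), against 25.8% in Ctrl, 23.8% in aPD-L1 (20.9 to 26.8) and 26% in Oxali.

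**Figure D2:**
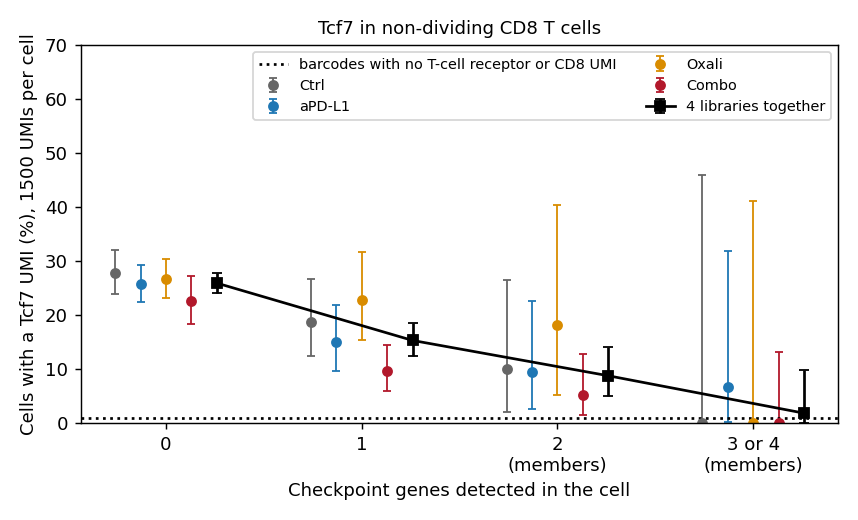
Percent of non-dividing CD8 T cells with a Tcf7 UMI at 1500 UMIs per cell (vertical axis) against the number of checkpoint genes detected in the cell at full depth (horizontal axis). Colored points are libraries, black squares the 4 libraries together, bars exact 95% intervals, and the dotted line the 0.971% of barcodes with no T-cell receptor or CD8 UMI. The pooled share steps from 25.9% to 1.85% in this random draw.

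Havcr2 and Tcf7 were detected together in few members. As counted, 7 members had both, 50 had Tcf7 without Havcr2, 48 had Havcr2 without Tcf7 and 134 had neither. Tcf7 was found in 7 of 55 members with Havcr2 (12.7%) and in 50 of 184 without (27.2%). At 1500 UMIs the corresponding counts were 3 of 55 (5.45%, 1.14 to 15.1) and 13 of 170 (7.65%, 4.13 to 12.7), a difference not detectable at this depth. Most members therefore belonged to neither class by detection. Detection of 1 or a few Tcf7 UMIs cannot tell a separate cell type from a range of levels.

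Members with a Tcf7 UMI, 57 cells, differed from the 182 without one in other genes that mark the progenitor state. Values are CPM (a gene's UMIs scaled to a fixed total of 1000000) over the summed cells of a class, on a linear scale, and each ratio is the class with Tcf7 over the class without. A gene was called when the ratio reached 1.5-fold and its interval left out 1, and of 3214 genes with at least 50 UMIs over the members 5.29% were called higher and 7% lower with Tcf7. Of the 7 other measured progenitor genes 5 were called higher and Xcl1 lower, with a median log2 ratio of 0.98 (all genes -0.03). Il7r, the receptor for the survival cytokine interleukin-7, was at 265 CPM with Tcf7 and 74.5 without, a ratio of 3.56 (2.57 to 4.95). Lef1, the close relative of Tcf7, was at 137 and 57.7 CPM (2.38, 1.59 to 3.59). Slamf6, the surface receptor Ly108 used to sort progenitors in mice, was at 145 and 82.9 CPM (1.75, 1.21 to 2.51). The ratio was 3.38 for S1pr1, the receptor of the tissue exit signal (fewer than 50 UMIs over all members), 3.44 for the quiescence factor Klf3 and 2.26 for Klf2, which drives S1pr1. Detection at 1500 UMIs went the same way for Il7r (28.6% of members with Tcf7 and 10.1% without), Lef1 (19.6% and 7.69%) and Klf2 (39.3% and 19.5%).

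The effector genes had the opposite order. All 5 measured cytokine and chemokine genes, 4 of 8 cytotoxic and 4 of 10 terminal exhaustion genes were called lower with Tcf7 and 0 higher, at list medians of -2.48, -0.55 and -0.59. Gzmb, the killing protease granzyme B, was at 630 CPM in members with Tcf7 and 2016 without, a ratio of 0.312 (0.272 to 0.357). Prf1, the pore former perforin, was at 115 and 449 CPM (0.256, 0.184 to 0.348), and Ifng, interferon gamma, at 232 and 942 CPM (0.247, 0.197 to 0.306). The inflammatory chemokine Ccl3 was at 35.0 and 507 CPM (0.069, 0.0374 to 0.117). Ratios were 0.179 for Ccl4, 0.385 for Ccl5, 0.564 for the granule gene Nkg7, 0.325 for the costimulatory receptor gene Tnfrsf9, 0.556 for the tissue-retaining chemokine receptor gene Cxcr6 and 0.539 for Id2, a regulator of effector cells. By summed UMIs, these effector genes were thus higher in the members without a Tcf7 UMI. Detection at 1500 UMIs kept this order for Gzmb (26.8% with Tcf7 and 46.2% without), Cxcr6 (30.4% and 69.2%) and Id2 (30.4% and 57.4%). It differed less, with overlapping intervals, for Ifng (19.6% and 28.4%), Ccl4 (30.4% and 37.9%), Nkg7 (92.9% and 97%) and Ccl5 (83.9% and 86.4%).

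The order of the progenitor, terminal exhaustion and cytotoxic granule lists was seen within the libraries. In all 4, the median share of a cell's UMIs taken by the other 14 genes of the progenitor list was higher with Tcf7 than without: 0.126% against 0.0889% in Ctrl, 0.126% against 0.0585% in aPD-L1, 0.176% against 0.101% in Oxali and 0.151% against 0.0658% in Combo. The terminal exhaustion list (Tox, Cxcr6, Cd160, Ctla4, Tnfrsf9 and others) went the other way in all 4, at 0.110% against 0.191%, 0.131% against 0.262%, 0.0899% against 0.219% and 0.166% against 0.237% in that order. The cytotoxic granule list followed the terminal list, at 0.446% against 0.649%, 0.431% against 0.792%, 0.417% against 0.536% and 0.512% against 0.742%. The list of naive and egress genes, which holds Klf2 and S1pr1, did not keep 1 order. It was higher with Tcf7 in Ctrl (0.217% against 0.163%), aPD-L1 (0.307% against 0.181%) and Oxali (0.278% against 0.256%). In Combo it was lower (0.202% against 0.22%). The classes with and without Tcf7 held 12 and 26 cells in Ctrl, 13 and 48 in aPD-L1, 10 and 21 in Oxali and 22 and 87 in Combo.

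Several measures moved with the Tcf7 class. Members with Tcf7 had a median of 6252 UMIs and those without 3950, and a deeper cell reaches 2 checkpoint genes at a lower level: Pdcd1, Lag3 and Havcr2 themselves had ratios of 0.446, 0.426 and 0.187. Of the immediate early and heat shock genes 7 of 18 were called higher with Tcf7 and 0 lower (median 0.55). The macrophage gene Lyz2 had a ratio of 3.05 and the MHC class II gene Cd74 2.56, and among the 171 members with fewer than 3 macrophage UMIs these turned to 0.886 and 0.674. Of the 29 genes computed for this split, 23 kept their call in both alternatives chosen after seeing the data, those without macrophage-rich cells and without each gene's top cell, among them Il7r, Lef1, Slamf6, Gzmb, Prf1 and Ccl3. The calls of Ccr7, Satb1, Cd160 and Hspa1a were lost in 1 alternative. The part of depth in these ratios was not tested.

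Granzyme B and perforin transcripts were higher in members with a Havcr2 UMI. Of 3215 genes 5.07% were called higher and 6.41% lower with Havcr2. Of 8 cytotoxic genes 2 were called higher (Gzmb and Prf1), 1 lower (Gzma) and 5 neither, at a list median of 0.07 on the log2 scale (all genes 0.02). In the 55 members with a Havcr2 UMI, Gzmb was at 3960 CPM and in the 184 without at 660, a ratio of 6.00 (5.44 to 6.62). Prf1 was at 884 and 135 CPM (6.53, 5.27 to 8.14). At 1500 UMIs Gzmb was detected in 61.8% against 34.7% and Prf1 in 43.6% against 11.8%. Ifng was at 1835 and 286 CPM (6.41, 5.53 to 7.45), but its ratio was 2.35 without the top cell of each class. By summed UMIs, Tnfrsf9 (3.15), the receptor-induced transcription factor gene Nr4a2 (2.85) and Ccl3 (2.41) were also higher with Havcr2. So were Serpinb9, which encodes the inhibitor of granzyme B (2.24), and the inhibitory receptor gene Ctla4 (1.77). The cytokine and chemokine list had a higher median share with Havcr2 in aPD-L1 (0.615% against 0.584%) and Combo (1.52% against 0.364%). It was lower in Ctrl (0.719% against 0.77%) and Oxali (0.172% against 0.39%). The terminal list was higher in Ctrl (0.255% against 0.159%), aPD-L1 (0.307% against 0.228%) and Combo (0.257% against 0.224%), and lower in Oxali (0.187% against 0.196%). By summed UMIs Tcf7 was lower (0.350, 0.168 to 0.660), as was Ccr7, the lymph node homing chemokine receptor (0.186). S1pr1 was also lower (0.278, from 4 and 38 UMIs, not called with fewer than 3 macrophage UMIs). The progenitor list had a lower median share with Havcr2 in Ctrl (0.0842% against 0.118%), aPD-L1 (0.0474% against 0.0845%) and Combo (0.048% against 0.0979%). In Oxali this list was higher with Havcr2 (0.178% against 0.125%). At 1500 UMIs Tcf7 was found there in 2 of 8 members with Havcr2 and 2 of 21 without.

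Members with Havcr2 also carried less of the type I interferon response. Of the 19 measured genes of that list 15 were called lower and 0 higher, with a median log2 ratio of -0.96 (all genes 0.02). Isg15, a ubiquitin-like antiviral modifier, had a ratio of 0.259 and was detected at 1500 UMIs in 16.4% against 37.1%. The antiviral genes Ifit1 (0.198, detected in 3.64% against 18.2%), Ifit3 (0.314, 10.9% against 19.4%) and Rsad2 (1 UMI against 92, detected in 0 of 55, an upper limit of 6.49% for cells with a UMI, against 20 of 170) had the same order. The median share of UMIs in the interferon list was lower with Havcr2 in each library: 0.268% against 0.439% in Ctrl, 0.392% against 0.488% in aPD-L1, 0.179% against 0.745% in Oxali and 0.319% against 0.429% in Combo. The early activation marker Cd69 was lower as well (0.455, 12.7% against 37.6%). The cytotoxic list was higher with Havcr2 in Ctrl (0.803% against 0.563%), aPD-L1 (0.742% against 0.613%) and Combo (1.04% against 0.619%), and lower in Oxali (0.416% against 0.506%), where the class held 8 cells. Median depth was 5651 UMIs with Havcr2 and 4011 without.

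**Figure D3:**
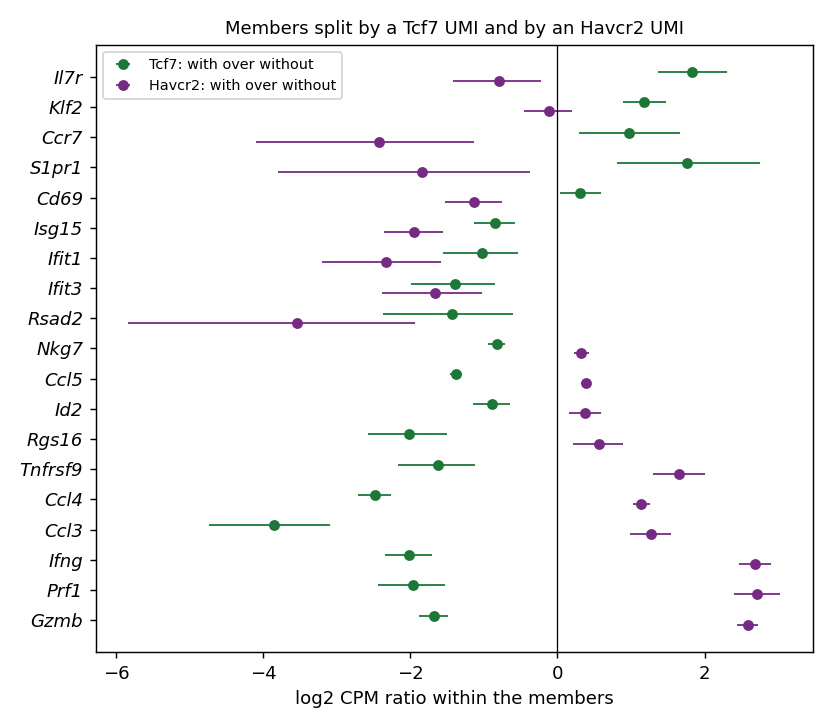
Log2 CPM ratios (horizontal axis) for named genes within the 239 members, split by a Tcf7 UMI (green, 57 cells over 182) and by a Havcr2 UMI (purple, 55 over 184). Points are ratios and bars exact 95% intervals. Il7r, Klf2, Ccr7 and S1pr1 lie to the right in the Tcf7 split, while Gzmb, Prf1 and Ifng lie far right in the Havcr2 split and left in the Tcf7 split. The 1 UMI of Rsad2 with Havcr2 is drawn as 3 UMIs.

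Against the other non-dividing CD8 T cells, members are described only, since the rule chose them from the same cells. Over 3215 genes, 26 were called higher in all 4 libraries (0.809%) and 9 lower in all 4 (0.280%), from calls of 10.2%, 10.6%, 9.08% and 7.43% higher and 2.55%, 4.29%, 2.30% and 2.61% lower in Ctrl, aPD-L1, Oxali and Combo. The 26 included Ccl3 (5.31- to 17.4-fold over the libraries), Ccl4 (3.66 to 11.5), Tnfrsf9 (2.11 to 12.1), Gzmb (2.19 to 6.34), Prf1 (3.01 to 4.53), the signaling brake gene Rgs16 (2.87 to 6.98), the calcium-binding membrane gene Anxa2 (2.50 to 3.54) and the galectin gene Lgals1 (2.07 to 2.87). The 9 called lower were Tcf7, Lef1, Il7r, Ccr7, Klf2, Satb1, Txk, Stk4 and Kbtbd11. Among the 9 the ratio was 0.367 to 0.480 for Ccr7, 0.294 to 0.517 for Il7r, 0.412 to 0.523 for Klf2 and 0.333 to 0.555 for the chromatin organizer Satb1. Tcf7 stood at 109 CPM in members and 192 in the others in Ctrl, 86.4 and 202 in aPD-L1, 95.6 and 219 in Oxali, and 53.1 and 145 in Combo, ratios of 0.566, 0.429, 0.437 and 0.368.

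Of the 15 progenitor genes, 8 had at least 50 UMIs over the members, while others, such as Id3, Bach2, Cxcr5, Myb, Bcl6 and Tnfsf8, did not. Their median log2 ratio, members over others, was -0.75, -0.90, -0.99 and -0.98 in the order of libraries above, beside 0.19, 0.19, 0.23 and 0.10 over all genes. Called lower were 5, 6, 5 and 5 of the 8. Xcl1, a chemokine for cross-presenting dendritic cells that progenitors are known to make, was the exception, called higher in Ctrl, aPD-L1 and Oxali, though 77%, 39.2% and 56.6% of its member UMIs there came from 1 cell. Of the terminal exhaustion list, 10 of 15 genes were measured, with medians of 0.78, 1.40, 1.60 and 0.88. Called higher were 4, 9, 8 and 8 of the 10, and 0 were called lower. By median, checkpoint-high cells had the terminal list above and the progenitor list below the rest of the CD8 T cells in each library.

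**Figure D4:**
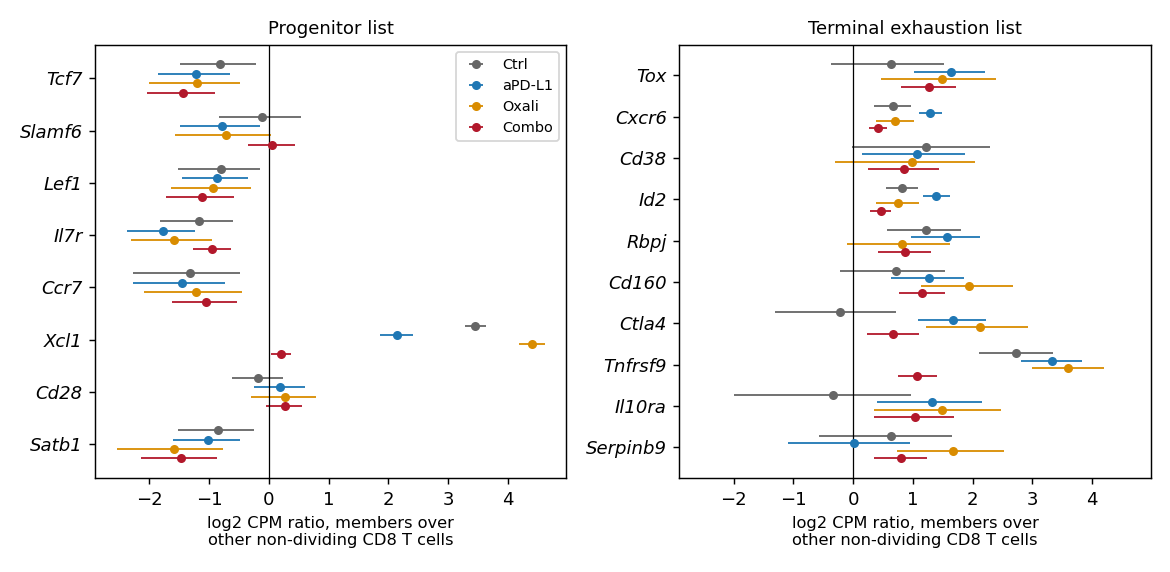
Log2 CPM ratio of members over other non-dividing CD8 T cells of the same library (horizontal axis) for the 8 measured progenitor genes (left) and 10 measured terminal exhaustion genes (right). Points are the 4 libraries by color and bars exact 95% intervals. Tcf7, Lef1, Il7r, Ccr7 and Satb1 lie left of 0 in every library, and Xcl1 lies right of it.

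Before the libraries are compared, 1 of them stood apart. The median share of a member's UMIs in immediate early and heat shock genes was 1.43% for Ctrl, 0.480% for aPD-L1, 0.421% for Oxali and 0.504% for Combo, and 29 of 38 Ctrl members lay above a level that 7 of 61, 2 of 31 and 11 of 109 of the others passed. The summed macrophage and monocyte genes stood at 3228, 439, 1123 and 530 CPM in members, with 21.5%, 11%, 67.0% and 18.1% of these UMIs in 1 cell, and 1, 3, 4 and 2 of the 14 genes at 0. At least 3 such UMIs were found in 14 of 38, 14 of 61, 8 of 31 and 32 of 109 members, 68 in all (28.5%, against 16.2% of the other CD8 T cells). At least 3 UMIs of regulatory T cell genes were found in 4 members, of NK genes in 3, of type 17 and gamma-delta T cell genes in 4, and of B cell, neutrophil and plasmacytoid dendritic genes in 0. Each comparison with Ctrl was therefore also computed without the stress-high members, which left 9 in Ctrl.

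Combo members, against Ctrl members, had lower Tcf7 and higher genes of the terminal list. Of 3219 genes, 7.21% were called higher and 5.78% lower. Tcf7 was at 109, 86.4, 95.6 and 53.1 CPM in Ctrl, aPD-L1, Oxali and Combo, and the Combo over Ctrl ratio was 0.489 (0.275 to 0.881). The same ratio in the CD8 T cells not chosen was 0.753. The Tcf7 call was lost in 6 of 12 alternatives, where the ratio was 0.291 to 0.779, the last without the stress-high members. Against aPD-L1 and Oxali the Combo ratio of Tcf7 was 0.615 (0.349 to 1.09) and 0.556 (0.294 to 1.09), which did not reach a call. For aPD-L1 and Oxali over Ctrl it was 0.795 (0.433 to 1.47) and 0.879 (0.434 to 1.74).

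Of the 8 progenitor genes 3 were called lower and 0 higher in Combo against Ctrl, with a median log2 ratio of -0.49 (all genes 0.05, and -0.29 for these genes in the cells not chosen). Satb1 stood at 109, 100, 71.7 and 42.5 CPM in Ctrl, aPD-L1, Oxali and Combo, a Combo over Ctrl ratio of 0.391. Xcl1, at 2344, 574, 2461 and 622 CPM, had a ratio of 0.265, with 77% of the Ctrl UMIs in 1 cell. The progenitor median ranged from -1.16 to 1.94 over the alternatives, the latter with at least 3 checkpoint genes, where Ctrl held 6 cells. Slamf6 (99.3, 72.6, 89.6 and 124 CPM), Lef1 (94.5, 107, 125 and 54.9), Il7r (118, 96.8, 119 and 168), Ccr7 (56.7, 55.3, 83.6 and 60.2) and Cd28 (241, 187, 191 and 216) reached no call. Progenitor genes therefore did not move as a block: Tcf7, Lef1 and Satb1 were lowest in Combo, while Slamf6 and Il7r were highest there.

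Of the 10 terminal exhaustion genes 5 were called higher and 0 lower in Combo against Ctrl, with a median of 0.81 (0.65 in the cells not chosen), ranging from -0.02 after thinning to 0.90. Tox, the transcription factor of the exhausted lineage, was at 56.7, 114, 71.7 and 119 CPM over Ctrl, aPD-L1, Oxali and Combo (Combo over Ctrl 2.09, 1.12 to 4.25). Ctla4 was at 47.3, 124, 95.6 and 115 CPM (2.44, 1.24 to 5.32), and Cd160, an inhibitory receptor gene, at 66.2, 100, 114 and 165 (2.49). Serpinb9 was at 42.5, 34.6, 83.6 and 115 CPM (2.71), and Cxcr6 at 506, 940, 550 and 795 (1.57, 1.27 to 1.96). The ratios in the cells not chosen were 1.34 for Tox, 1.32 for Ctla4, 1.84 for Cd160, 2.40 for Serpinb9 and 1.86 for Cxcr6. Tox and Cxcr6 were near their Combo level in aPD-L1 alone. Id2, Rbpj, Cd38, Il10ra and Tnfrsf9 reached no call. The calls of Tox, Ctla4, Cd160 and Serpinb9 were lost without the stress-high members, and that of Cxcr6 was lost in 6 other alternatives.

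Some other inhibitory and effector genes were also called between Combo and Ctrl. Cd5, a brake on receptor signaling, was at 56.7, 128, 114 and 188 CPM (Combo over Ctrl 3.31, 1.82 to 6.61, and 1.17 in the cells not chosen). The cytotoxic list had 4 of 8 genes higher and 1 lower in Combo, with Gzmb at 978, 2317, 747 and 1644 CPM (1.68, 1.44 to 1.96), Prf1 at 184, 353, 239 and 423 (2.30) and the granule protease gene Ctsw at 1.56. Gzmb in Ctrl rested on 1 cell for 56.5% of its UMIs, and it was highest in aPD-L1. The NK receptor genes Klrd1 (1.74) and Klrc1, which form an inhibitory pair, and the survival gene Bcl2 (1.72) were also higher. The lysosome membrane gene Lamp1 (0.346) and Klf2 (0.358) were lower, and the Klf2 ratio was 3.04 without the stress-high members. Without these members the Combo over Ctrl calls of Cd5, Gzmb, Prf1, Ctsw, Klrd1, Klrc1, Bcl2 and Lamp1 were lost, and with at least 3 checkpoint genes the Gzmb ratio was 0.996.

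Single cells carried the cytokine genes. Ifng was at 496, 315, 376 and 1095 CPM, and 66.8% of the Combo UMIs came from 1 cell; the Combo over Ctrl ratio was 2.21, and 0.926 without the top cell of each library. Ccl3 and Ccl4 had ratios of 0.452 and 0.551 and turned to 1.01 and 1.14 without it, since 71.9% and 59.5% of their Ctrl UMIs were in 1 cell. For these 3 genes the direction between Combo and Ctrl rested on the top cells.

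Some genes of the interferon-response list were called higher than in Ctrl. In Combo 9 of 19 were called higher and 0 lower (median 0.77, and 0.42 in the cells not chosen), among them Ifit3 (2.85), Rsad2 (2.67), Ifit1 (2.34) and Isg15 (1.94). In Oxali 8 of 19 were called higher and 0 lower (median 0.69), and in aPD-L1 4 of 19 (median 0.38). Without the stress-high members Isg15 was at a Combo over Ctrl ratio of 0.997 and Ifit3 at 0.960, and the calls of Ifit1 and Rsad2 in Combo and of Isg15 in Oxali were lost. Stress genes were the most uniform list: 16 of 18 were lower in Combo, 15 in aPD-L1 and 14 in Oxali than in Ctrl, with Hspa1a at a Combo ratio of 0.0337 and 0.0928 in the cells not chosen. The Combo median of this list was -1.97 in members and -1.93 in the others. Of 6 measured p53 targets 1 was higher (Ccng1) and 2 lower (Cdkn1a and Gadd45b) in Combo. The same 2 were lower in Oxali (median -0.57) and in aPD-L1 (median -0.61), and 0 were higher there.

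**Figure D5:**
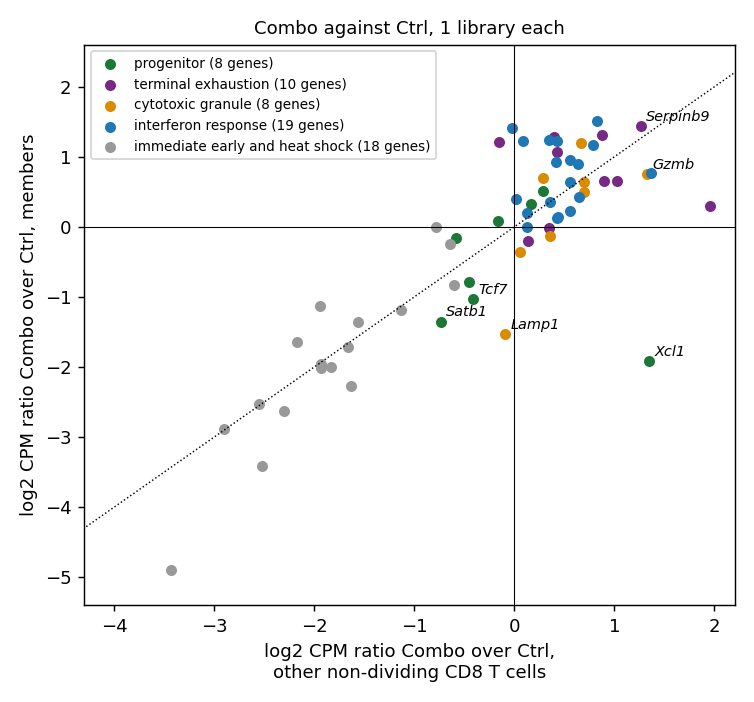
Log2 CPM ratio of Combo over Ctrl in the other non-dividing CD8 T cells (horizontal axis) against the same ratio in members (vertical axis), 1 point per measured gene of 5 lists, with the dotted line marking equal ratios. Stress genes lie low on both axes, Tcf7 and Satb1 below 0 on both, Serpinb9 and Gzmb above 0 on both, and Xcl1 is lower in members (0.265) and higher in the others (2.54).

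By size, the highest Combo over Ctrl ratio belonged to Ifitm1, an interferon-induced membrane gene, at 8.51 (4.54 to 18) from 12 Combo cells. Next were Hsd11b1 (5.15), which encodes the enzyme that regenerates active glucocorticoid, Slfn5 (3.69), Cntrl (3.33), Cd5 (3.31), the histone methyltransferase genes Kmt2a (3.30) and Nsd1 (3.09), Car2 (3.05), AU020206 (3.00) and Mrpl4 (2.86). The lowest were mostly genes of macrophages. Ccl24 had 366 UMIs in Ctrl members and 6 in Combo, Ccl2 163 and 3, and Retnla 89 and 10. Ccl8 had 132 and 40, Hmox1 77 and 20, and Fn1 70 and 0. With that 0 set to the floor of 3 UMIs, Fn1 was 62.3-fold higher in Ctrl (20.4 to 309). In 5 of these genes (Ccl24, Fn1, Retnla, Hmox1 and Ccl8) 1 cell held most of the Ctrl UMIs. The phosphatase gene Dusp1 and the chaperone genes Dnajb1, Hspa1a and Hspa1b completed the lowest 10. Of 42 genes recomputed under the alternatives between Combo and Ctrl, 6 kept their call wherever they were computed. Ifitm1, Hspa1a, Hspa1b and Dusp1 kept it in all 12 alternatives. Ccl2 was computed in 10 and Fn1 in 9, since in the rest neither library passed the floor of 3 UMIs.

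Between Combo and aPD-L1, which leaves the Ctrl library out, 4.72% of genes were called higher and 2.58% lower in Combo members. The progenitor list split, with Slamf6 (1.71, 1.04 to 2.93) and Il7r (1.74, 1.13 to 2.75) higher and Lef1 (0.512) and Satb1 (0.424) lower, and its median was 0.09. The terminal list had Cd160 (1.64) and Serpinb9 (3.33) higher and a median of -0.01. Tox, Cxcr6 and Ctla4 were not called. In the cells not chosen, 8 of the 10 terminal genes were called higher and 0 lower, at a median of 0.74. Combo members had higher Ifit1 (1.86), Isg15 (1.55), the antiviral GTPase gene Mx1 (1.97), Ifitm1 (7.75), the matrix cytokine gene Spp1 (5.32), the arginine synthesis gene Ass1 (4.78) and Ifng (3.48, with 66.8% of Combo UMIs in 1 cell). Lower were Ranbp1 (0.488), Dut (0.550), Cycs (0.589) and Anp32b (0.591), each of which lost its call after thinning. Hspa1a was also lower (0.259). In 3 of 24 genes (Ifitm1, Spp1 and Pglyrp1) the call was kept in every alternative.

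Between Combo and Oxali, 4.01% of genes were called higher and 3.70% lower. Progenitor genes were lower by median (-0.67), with Lef1 (0.438) and Xcl1 (0.253, 56.6% of Oxali UMIs in 1 cell) called. The terminal median was 0.38, with Id2 (1.52) called higher. In the cells not chosen this median was 0.92, with 8 of 10 genes called higher and 0 lower. Gzmb (2.2), Prf1 (1.77), Klrc1 (2.77), Cd5 (1.65) and Cd69 (1.82) were higher in Combo. Cxcl10, an interferon-induced chemokine, had 117 UMIs in 11 Combo members and 3 in Oxali, a ratio of 11.6 (3.86 to 56.9). The transcription factor gene Irf8 (0.403), the adhesion gene Crtam (0.362) and the secreted protein gene Pglyrp1 (0.394) were lower. Of the 14 genes recomputed under the alternatives, Ifng and Pglyrp1 kept their call in each. The call of Id2 was lost in 8 of 12 alternatives, down to a ratio of 1.03, and that of Cd5 in 6, and Prf1 turned to 0.774 with no limit on dividing genes.

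The single agents were compared with Ctrl alone. In aPD-L1 members 4.44% of genes were called higher and 5.87% lower. Terminal genes Tox (2.01, 1.01 to 4.28), Cxcr6 (1.86) and Ctla4 (2.63) were higher, with a list median of 0.45, and of the progenitor genes Xcl1 (0.245) was called lower and the list median was -0.31. Gzmb (2.37), the receptor kinase gene Lck (2.18), Bcl2 (2.07), Pglyrp1 (2.80), Gimap5 (2.48) and Gimap7 (2.11) were higher, and Gzmb and Gimap7 kept their call in every alternative. The call of Tox was lost in 7 of 12 alternatives and its ratio turned to 0.842 after thinning. Ctla4 lost its call with at least 3 checkpoint genes and without the stress-high members, and turned to 0.963 with no limit on dividing genes. In Oxali members 3.82% were called higher and 4.54% lower. No progenitor gene was called (median -0.05). The terminal list median was 0.44 (all genes 0.06, and -0.38 for this list in the cells not chosen), with 0 of 10 genes called higher. Id2 was called lower (0.655), a call lost in 6 of 12 alternatives and turned to 1.21 without the stress-high members. Pglyrp1 (3.86), Irf8 (2.79), Isg15 (2.32), Ifi209 (2.17), Isg20 (1.86) and Bst2 (1.85) were higher. These comparisons share the Ctrl library, whose stress-high and macrophage-rich members move with every one of them, and the part of those cells in the differences was not tested.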

How the data were processed

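Per the labels, 4 droplet libraries were made with a Chromium Single Cell 3' v3 kit from sorted cells, and the submitters' processing notes name Cell Ranger 3.1.0 and mm10. The annotation release is not given in the sources used here. The deposited files hold the authors' counts, whole UMI counts per gene and filtered barcode, for 31053 genes with no normalization. The 4 libraries held 1116 to 1642 barcodes and 5443036 to 6340015 UMIs, and the summed members 167398 to 564564 UMIs.

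Members and gene lists were chosen with earlier results of these data known. The 14 gene lists cover exhaustion states, function, stress and interferon response, and 10 marker lists cover other cell types. Counts were summed over members of a library and divided by their total UMIs (CPM). Genes with at least 50 UMIs over all members were compared in 5 library pairs. A gene was called at a ratio of 1.5-fold or more with an exact binomial interval, conditioned on both counts, that left out 1. Counts under 3 UMIs were set to 3, list medians had 1 UMI added to each sum, and shares have Clopper-Pearson 95% intervals. Thinning drew 1500 UMIs per cell without replacement (seed 1). Calls were tested on simulated UMI sums, which hold no concentration of a gene's UMIs in single cells. Shares were not tested on simulated data.

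Named genes were the measured progenitor and terminal list members, the highest and lowest 10 ratios per library pair among genes with 50 UMIs in 1 of the libraries (a selection outside Combo against Ctrl), up to 4 called genes of other lists, and in members against others the highest 15 and lowest 10 by their least extreme library. Genes named in the Tcf7 and Havcr2 splits were chosen after their values were seen. Receptor segments, ribosomal, mitochondrial and hemoglobin genes, unnamed models and marker genes were left out of that ranking. The values of 1 gene are not reported here. Stress-high members were those above the 90th percentile of the share of UMIs in the stress list among members outside Ctrl (0.915%).

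Scrublet (expected rate 5%) marked 23 of 4948 filtered barcodes (0.465%) and 0 members, so doublets were not removed and that alternative says nothing about them. Of the barcodes, 2 occurred in 2 libraries, and 0 of these were members. Receptor V genes were too sparse to use: 19 members had UMIs of exactly 1 Trbv gene. Coordinates are those of GENCODE M21 on mm10, which matched all 280 gene IDs looked up. Alternatives are given in the closing section. The software was scanpy 1.11.5, matplotlib 3.10.9, scipy 1.17.1, pandas 2.3.3 and numpy 2.4.6 under Python 3.11.15.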

Additional observations from a re-analysis of the deposited data

Results flagged for a closer look

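The ratio of member shares was below 1 for Oxali over Ctrl and above 1 for Combo over aPD-L1. As counted, Oxali over Ctrl was 0.641 (0.386 to 1.06) and Combo over aPD-L1 was 2.43 (1.76 to 3.38). After thinning these ratios were 0.86 (0.281 to 2.63) and 1.62 (0.999 to 2.64), and 3 of the 4 intervals include 1. The difference between these ratios was not tested, and with 1 library per group it cannot be told apart from a difference between single libraries.

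Within members, 5 genes were lower in 1 of these pairs and higher in the other. The CPM ratio of Arg1, an arginine-degrading enzyme of macrophages, was 0.0243 for Oxali over Ctrl and 7.25 for Combo over aPD-L1, with 79.8% of the Combo UMIs in 1 cell. The chemokine gene Ccl6 had 0.186 and 8.71 (60.3% in 1 Combo cell), and the metal-binding gene Mt1 had 0.281 and 3.87 (80.2% in 1 Combo cell). The chemokine gene Ccl8 had 0.0766 and 2.56, with 89.4% of the Ctrl UMIs in 1 cell. Pglyrp1 went the other way, at 3.86 and 0.542. These differences were not tested.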

How the results depend on the processing

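Each group was 1 library, so no library could be left out, and every value rests on single libraries. No paired analysis was possible because each group was 1 library and the libraries share no replicate. The cause of a change below was not tested, except that alternatives that keep fewer cells, fewer UMIs or fewer genes call fewer genes by construction. The order of libraries is Ctrl, aPD-L1, Oxali, Combo, and that of comparisons is aPD-L1 vs Ctrl, Oxali vs Ctrl, Combo vs Ctrl, Combo vs aPD-L1, Combo vs Oxali. The main counts of called genes, both directions together, were 332, 269, 418, 235 and 248.

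The member share was 8%, 9.46%, 6.22% and 19.2% under the stricter cell filter (1000 genes, 5% mitochondrial UMIs), 0.92%, 1.65%, 0.843% and 3.65% with at least 3 checkpoint genes, 2.15%, 2.59%, 1.45% and 5.62% with 2 of Havcr2, Lag3 and Entpd1, and 1.25%, 3.78%, 1.08% and 6.12% after thinning. With no limit on dividing genes it was 8.42% in aPD-L1. Combo was highest in each of these 4 settings. The Tcf7 share was 31.6%, 21.3%, 32.3% and 20.2% as counted, 0% in Ctrl, Oxali and Combo with at least 3 checkpoint genes, 20.5% in aPD-L1 and 15.5% in Combo at 3000 UMIs, and 9.71% in Combo in another random draw. The Tcf7 ratio of Combo over Ctrl lost its call at 0.328 with at least 3 checkpoint genes, 0.459 with fewer than 3 macrophage UMIs, 0.779 without stress-high cells, 0.291 after thinning, 0.57 as a mean of per-cell CPM and 0.541 without the top cell. It reached a call at 0.345 against aPD-L1 with 2 of Havcr2, Lag3 and Entpd1 and at 0.492 against Oxali as a mean of per-cell CPM, and it was 0.282 against Oxali after thinning.

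Counts of called genes were 100, 92, 101, 101 and 87 with at least 3 checkpoint genes, 159, 178, 265, 127 and 136 with fewer than 3 macrophage UMIs, 98, 73, 108, 46 and 57 after thinning, and 127, 121, 146, 48 and 81 over genes with at least 200 UMIs. With 2 of Havcr2, Lag3 and Entpd1 they were 140, 263, 100 and 155 from Oxali vs Ctrl on. Without stress-high cells the first 3 were 141, 127 and 160. With no limit on dividing genes the last 2 were 445 and 375, and by the mean of per-cell CPM Oxali vs Ctrl had 408.

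With at least 3 checkpoint genes the direction turned in Combo vs Ctrl for Xcl1 (8.45), Tox (0.983), Gzmb (0.996), Ccl3 (2.69), Ccl4 (1.9), Ifit3 (0.852), Ifit1 (0.852), Slfn5 (0.59) and Car2 (0.393), in aPD-L1 vs Ctrl for Xcl1 (9.72), in Combo vs aPD-L1 for Isg15 (0.826) and Hspa1b (1.49), and in Combo vs Oxali for Xcl1 (1.43) and Cd69 (0.792). With 2 of Havcr2, Lag3 and Entpd1 it turned for Xcl1 in aPD-L1 vs Ctrl (1.59) and Combo vs Ctrl (1.44), for Ccl3 (3.46), Ccl4 (2.58) and Rsad2 (0.922) in Combo vs Ctrl, for Bst2 in Oxali vs Ctrl (0.967) and for Arg1 in Combo vs aPD-L1 (0.863). With no limit on dividing genes it turned for Ctla4 in aPD-L1 vs Ctrl (0.963), Mt1 in Oxali vs Ctrl (1.17), Tox in Combo vs Ctrl (0.865) and Prf1 in Combo vs Oxali (0.774). With fewer than 3 macrophage UMIs it turned for Hmox1 (1.19) and Ccl8 (1.29) in Combo vs Ctrl, Mt1 in Combo vs aPD-L1 (0.625), and, in an alternative chosen after seeing the data, Cd74 (0.674) and Lyz2 (0.886) in the Tcf7 split. Without stress-high cells it turned for Id2 in Oxali vs Ctrl (1.21) and for Klf2 (3.04), Ifit3 (0.96), Isg15 (0.997) and Ccl8 (1.01) in Combo vs Ctrl. It turned for Tox in aPD-L1 vs Ctrl after thinning (0.842), and without the top cell for Ifng (0.926), Ccl3 (1.01) and Ccl4 (1.14) in Combo vs Ctrl.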
